A study of Oryctolagus cuniculus with 6 samples.

Results

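Smooth muscle contractile genes were followed across polyA RNA-seq libraries of rabbit tracheal mucosa. The set was a list of 10 gene symbols (MYH11, LMOD1, SYNPO2, ACTG2, DES, CNN1, TAGLN, ACTA2, MYLK and KCNMB1) looked up in the deposited gene table. Of these, 8 had a row, among 29587 genes in all; CNN1 and TAGLN had no row under those symbols and were not analysed here. Each of the 8 passed the filter on low counts and was among the 13724 genes tested. New Zealand rabbits aged 3 months made up both groups. In the 3 libraries of the high cuff pressure group, a tracheal tube of 3.0 mm had been placed 13 cm deep and its cuff kept at 35 cmH2O for 2 h. The other 3 libraries are controls, whose handling the labels do not describe, nor when the tissue was taken. The labels give the cell type as epithelial, but their protocol names tracheal mucosa as the source of the RNA, and the libraries held abundant muscle transcripts as well as epithelial ones. The comparison asks how mucosa under an over-inflated cuff differs from control mucosa; for the contractile genes it also shows how much muscle RNA each strip of tissue gave.

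The trachea is closed at the back by the trachealis, a band of smooth muscle beneath the mucosa, and smooth muscle also wraps the vessels of the airway wall. In such cells, force comes from smooth muscle myosin pulling on smooth muscle actin. The contraction starts when a rise in calcium activates myosin light chain kinase, and large-conductance calcium-activated potassium channels oppose it. Many contractile genes share control by serum response factor and its partner myocardin, so that their transcripts are commonly used together as markers of differentiated smooth muscle.

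The contractile transcripts were much scarcer in 1 library than in the other 5, and between the groups no member passed the test. The 8 genes together took 0.0468% of all counts in high cuff pressure replicate 1 (95% exact binomial interval 0.0456 to 0.0481). They took 0.363% and 0.706% in high cuff pressure replicates 2 and 3, and 0.762%, 1.19% and 0.702% in control replicates 1, 2 and 3. The intervals cover counting error only. As a sum of CPM (counts scaled to a common library total, with TMM factors that correct for a few very abundant genes), the set stood at 525 in high cuff pressure replicate 1, while the other libraries spanned 4482 to 9831. The third library of that group, at 7711 CPM, lay inside the control range of 5846 to 9831 CPM. In bulk tissue, fewer muscle cells and less RNA per muscle cell cannot be told apart.

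Library totals ran from 10501734 to 14415754 counts. Mitochondrial transcripts took 27.8% to 30.5% of counts in the high cuff pressure libraries and 5.28% to 11.5% in the controls. The library with the fewest contractile transcripts, at 30.5%, was close to the other 2 of its group in this. With mitochondrial counts left out of the total, its contractile share was 0.0674% against 0.502% to 1.26% in the other 5 libraries. No pairing is given in the labels, no repeated library was found, and each library counts as 1 replicate. The labels do not say that libraries came from separate animals, so p-values measure only the spread between these samples.

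**Figure D1:**
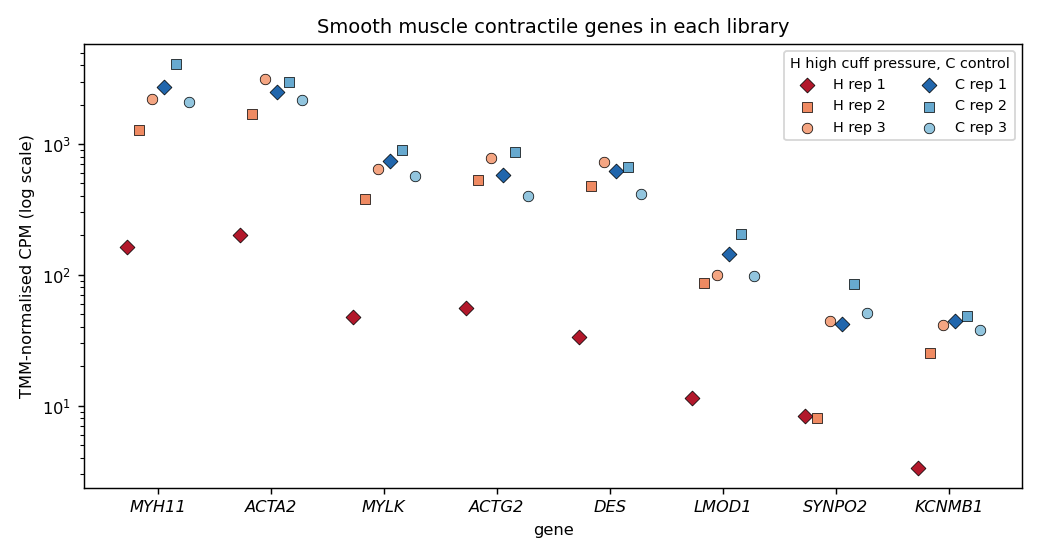
TMM-normalised CPM on a log axis for each of the 8 contractile genes, 1 point for each library (red shades for high cuff pressure, H; blue shades for control, C). High cuff pressure replicate 1 lies at least 7.13-fold below every other library for 7 of the genes, and SYNPO2 is low in replicates 1 and 2 of that group.

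The motor and its actin tracks come first. MYH11 (ENSOCUG00000013450, chromosome 6, 11019065 to 11130994) encodes the smooth muscle myosin heavy chain. It had 1654, 10913 and 29371 counts in the high cuff pressure libraries and 31774, 63418 and 28715 in the controls, in replicate order. On the CPM scale these were 163, 1284 and 2225 against 2715, 4081 and 2093. High cuff pressure replicate 1 was 7.88-fold below the next lowest library, and the groups overlapped because replicate 3 of the high cuff pressure group exceeded control replicate 3. The fold change of -1.28 ± 0.78 SE on the log2 scale missed the threshold (edgeR adjusted p = 0.31).

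ACTA2 (ENSOCUG00000008193, chromosome 18, 36853674 to 36870923) encodes the smooth muscle alpha actin that is also switched on in pericytes and myofibroblasts. It had 2043, 14450 and 41476 counts with high cuff pressure and 29420, 46197 and 29853 in the controls. The corresponding CPM were 201, 1701 and 3142 against 2514, 2973 and 2176. The highest and the lowest library both belonged to the high cuff pressure group. ACTG2 (ENSOCUG00000003663, chromosome 2, 112583262 to 112603850) encodes the gamma actin typical of visceral smooth muscle. Its counts were 569, 4475 and 10271 against 6727, 13481 and 5487, which gave 56.1, 527 and 778 against 575, 867 and 399.9 CPM. Replicates 2 and 3 of the high cuff pressure group both exceeded control replicate 3. Log2 fold changes were -0.60 ± 0.78 SE for ACTA2 and -0.44 ± 0.77 SE for ACTG2, and neither passed (edgeR adjusted p = 0.64 and 0.74). Actin genes are close copies of each other and how shared reads were counted was not given in the sources used here, so the split between them is uncertain.

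LMOD1 (ENSOCUG00000007492, chromosome 16, 69652629 to 69692526) encodes leiomodin 1, which starts actin filaments in smooth muscle. It had 115, 739 and 1326 counts with high cuff pressure and 1691, 3212 and 1342 in the controls, or 11.3, 87.0 and 100.5 against 145, 207 and 97.8 CPM. Replicates 2 and 3 of the high cuff pressure group lay beside the lowest control. Its log2 fold change of -1.18 ± 0.68 SE did not pass (edgeR adjusted p = 0.28).

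SYNPO2 (ENSOCUG00000008953, chromosome 15, 94209337 to 94403714) encodes synaptopodin 2, an actin-binding protein of the Z-discs and dense bodies that anchor filaments. It was the exception in the set. Counts were 84, 68 and 587 with high cuff pressure and 490, 1324 and 697 in the controls, which made 8.28, 8.002 and 44.5 against 41.9, 85.2 and 50.8 CPM. It was thus as low in replicate 2 of the high cuff pressure group as in replicate 1, whereas the other 7 genes stood at 25.3 to 1701 CPM in replicate 2. Against the control median, replicate 2 was 6.35-fold lower for SYNPO2 and 1.09- to 2.11-fold lower for the others. The log2 fold change of SYNPO2, -1.54 ± 0.68 SE, was the farthest from 0 of the set but did not pass (edgeR adjusted p = 0.18, unadjusted p = 0.053).

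DES (ENSOCUG00000000968, chromosome 7, 160621412 to 160627456) encodes desmin, the intermediate filament of muscle cells. It had 337, 4024 and 9676 counts against 7283, 10405 and 5728, or 33.2, 474 and 733 against 622, 669.5 and 417 CPM. The gap below the next lowest library was widest here, at 12.6-fold for high cuff pressure replicate 1, while replicate 3 of that group exceeded all 3 controls. At a log2 fold change of -0.46 ± 0.84 SE, DES missed the threshold (edgeR adjusted p = 0.75).

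The regulators of contraction in the set were the kinase and the channel subunit. MYLK (ENSOCUG00000014935, chromosome 14, 95277716 to 95496437) encodes the kinase that phosphorylates the myosin light chain. It had 485, 3205 and 8533 counts with high cuff pressure against 8604, 13995 and 7867 in the controls, in CPM 47.8, 377 and 646 against 735, 901 and 573. KCNMB1 (ENSOCUG00000000539, chromosome 3, 51756479 to 51764200) encodes the beta subunit that raises the calcium sensitivity of the large-conductance potassium channel. Its counts were 34, 215 and 546 against 514, 756 and 516, or 3.35, 25.3 and 41.4 against 43.9, 48.6 and 37.6 CPM. In both, high cuff pressure replicate 3 lay among the controls and replicate 2 below all of them. Log2 fold changes of -1.04 ± 0.75 SE for MYLK and -0.89 ± 0.69 SE for KCNMB1 did not pass (edgeR adjusted p = 0.38 and 0.42). Positions are those of the deposited table; its build was not given in the sources used here.

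Across the set, 0 of 8 genes passed the edgeR quasi-likelihood test at a Benjamini-Hochberg adjusted p under 0.05, where 5.28% of all tested genes passed in either direction and 1.62% passed as lower. None had an unadjusted p under 0.05 (0 of 8, against 29.3% of all tested genes), and 0 passed with DESeq2 or limma-voom, which called 19.2% and 5.97% of all genes. The ranges of the groups overlapped for all 8, while 37.3% of the tested genes had groups that did not overlap. The median log2 fold change was -0.97 over the 8 genes and -0.0093 over all tested genes. All 8 values were negative, but the genes varied together from library to library and so are not 8 separate observations. In the authors' deposited table, SYNPO2 had p = 0.0075 and q = 0.070, MYH11 p = 0.043 and q = 0.20, and LMOD1 p = 0.043 and q = 0.21; the test behind these was not stated.

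The library that was left out decided the size of these values. Without high cuff pressure replicate 1, the median log2 fold change of the set was -0.45, with -0.75 for MYH11, -0.67 for LMOD1, -1.16 for SYNPO2, -0.52 for MYLK and -0.37 for KCNMB1. ACTA2 then had -0.072, and ACTG2 and DES changed sign to 0.092 and 0.087. Without replicate 3 of that group the median was -1.60, MYH11 had -2.03 and SYNPO2 had -2.86, the latter passing the test (edgeR adjusted p = 0.027); in that fit 0.413% of 14041 tested genes passed as lower. SYNPO2 had edgeR adjusted p values of 0.21 to 0.41 in the other 5 fits with a library left out. Leaving out a control gave medians of -0.84 to -1.09.

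**Figure D2:**
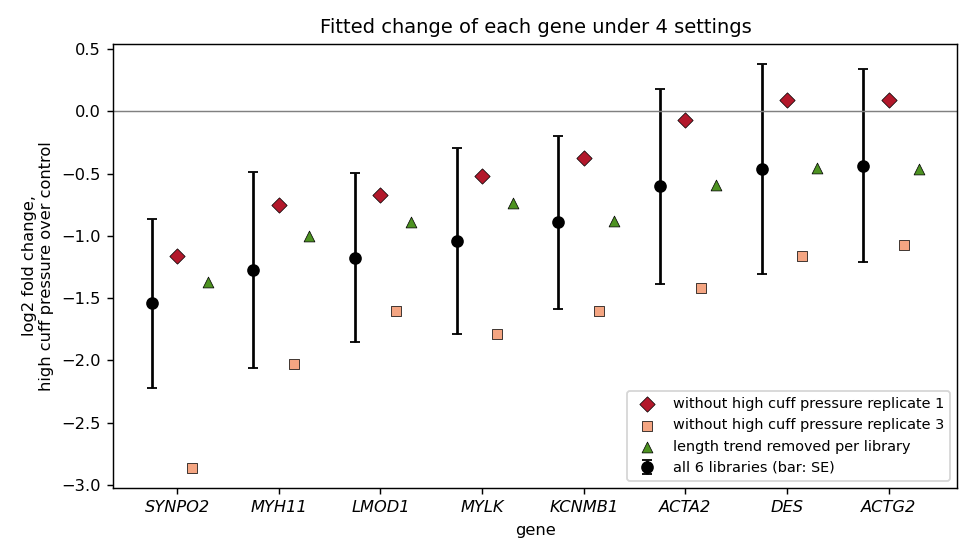
Log2 fold change of high cuff pressure over control for each contractile gene, with all 6 libraries (black, bars show the SE) and under 3 other settings. Without high cuff pressure replicate 1 the values of ACTA2, DES and ACTG2 lie between -0.072 and 0.092, and without replicate 3 all 8 lie between -2.86 and -1.07.

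The members followed the library more than the group. Control replicate 2 had the highest control value for all 8 genes, and control replicate 3 the lowest for 7; SYNPO2 was lowest in control replicate 1. The highest control exceeded the lowest by 1.29-fold for KCNMB1 to 2.17-fold for ACTG2. Within the high cuff pressure group, replicate 3 exceeded replicate 2 for all 8 genes and replicate 2 exceeded replicate 1 for 7. Replicate 3 of that group was above control replicate 3 for 7 genes and above control replicate 2 for DES and ACTA2. High cuff pressure replicate 1 was the lowest of all libraries for 7 of the 8 and at least 4-fold below each other library for the same 7, where 1.27% of all tested genes lay that far down.

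Transcript levels per length set the order of the genes. Per kilobase of gene model, ACTA2 led in the controls with 1506 ± 236 CPM (SD, n = 3). MYH11 (452 ± 155), ACTG2 (423 ± 163) and DES (351 ± 82.6 CPM per kilobase) followed, and their means lay closer together than the libraries of 1 gene did. MYLK stood at 91.9 ± 20.4 CPM per kilobase. KCNMB1 (26.1 ± 3.33) and LMOD1 (24.5 ± 8.94) could not be ranked against each other, and SYNPO2 was the scarcest at 11.6 ± 4.49 CPM per kilobase. ACTA2 was also first in every high cuff pressure library, with 119, 1003 and 1853 CPM per kilobase. MYH11 and ACTG2 changed places: MYH11 was ahead in the 3 controls (415, 623 and 320 against 396, 597 and 275 CPM per kilobase) and ACTG2 in the 3 high cuff pressure libraries (38.6, 362 and 536 against 24.9, 196 and 340).

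Ratios between members divide out the shared level of a library and describe what kind of contractile RNA was left. MYH11 counts were 2.91, 2.44 and 2.86 times those of ACTG2 with high cuff pressure and 4.72, 4.70 and 5.23 times in the controls. Relative to ACTA2, MYH11 stood at 0.810, 0.755 and 0.708 against 1.08, 1.37 and 0.962. The MYH11 to MYLK ratio was 3.41, 3.40 and 3.44 against 3.69, 4.53 and 3.65. In each of these 3 ratios MYH11 was relatively scarcer in all high cuff pressure libraries, replicate 1 included, and the groups did not overlap. Of all 28 ratios between members, 7 had groups that did not overlap, and MYH11 was part of 4 of them. These were the 3 above and MYH11 to KCNMB1, at 48.6, 50.8 and 53.8 against 61.8, 83.9 and 55.6. The groups overlapped for MYH11 to LMOD1, to SYNPO2 and to DES. For single genes by CPM, the groups did not overlap for 37.3% of all tested genes. The share over ratios of other genes was not computed. The member ratios without MYH11 whose groups did not overlap were LMOD1 to ACTG2, ACTG2 to MYLK and ACTA2 to MYLK. The ratios share genes and libraries and were not tested, and an exact permutation test of 3 against 3 libraries cannot go below p = 0.10.

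Against the mean log2 CPM of the other 7 genes, MYH11 was at 2.87 ± 0.14 with high cuff pressure and 3.26 ± 0.12 in the controls (log2 ratios, SD, n = 3). ACTG2 was at 1.22 ± 0.29 and 0.64 ± 0.21, the other of the 8 genes whose groups did not overlap on this measure. By CPM, 37.3% of all tested genes had groups that did not overlap. MYLK had the narrowest range over the 6 libraries of the 8 genes, from 0.70 to 1.07, and KCNMB1 stood at -3.61 ± 0.12 and -3.65 ± 0.23. SYNPO2 was the most variable, at -2.19, -5.38 and -3.56 with high cuff pressure and -3.66, -2.99 and -2.97 in the controls. DES was low for its company in high cuff pressure replicate 1 (0.098) and high in replicates 2 and 3 (1.35 and 1.06), with controls at 0.41 to 0.79.

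**Figure D3:**
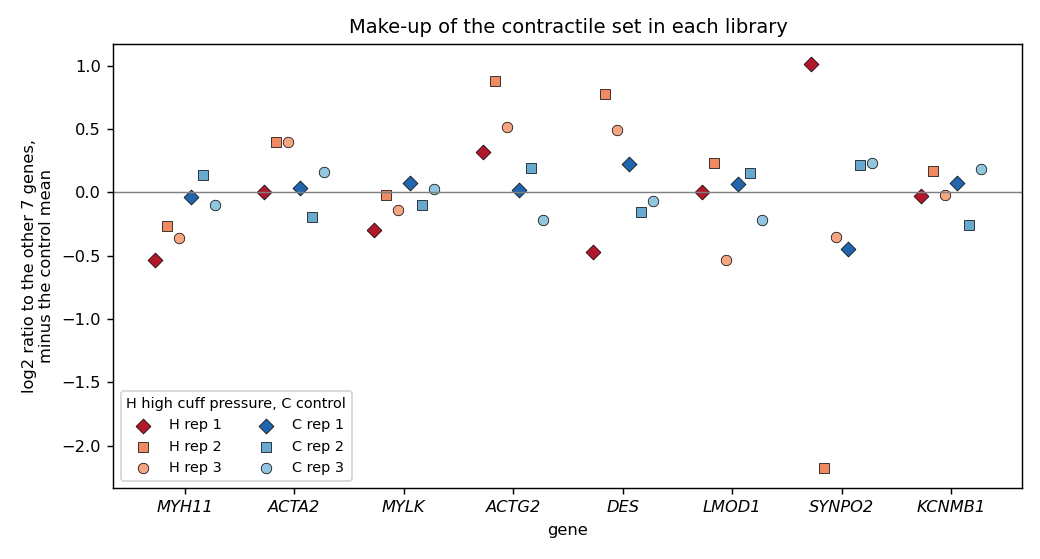
For each contractile gene, its log2 ratio to the other 7 genes in each library, minus the mean of the 3 controls (red shades H, high cuff pressure; blue shades C, control). All 3 red points lie below the blue ones for MYH11 and above them for ACTG2, and the points of SYNPO2 are spread widest.

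Gene length moved with the sizes of these values. The 4 members with gene models over 5000 bp (SYNPO2, 5097; LMOD1, 6109; MYH11, 6550; MYLK, 8010 bp) had log2 fold changes of -1.54 to -1.04, with a median of -1.23. The 4 under 2000 bp (ACTG2, 1453; DES, 1623; KCNMB1, 1663; ACTA2, 1696 bp) had -0.89 to -0.44, with a median of -0.53. Over all tested genes, the median log2 fold change was 0.20 in the shortest quartile of gene models and -0.15 in the longest. With a smooth trend over length removed in each library, MYH11 had -1.001, LMOD1 -0.89, MYLK -0.74 and SYNPO2 -1.37, and the 4 short members had -0.88 to -0.46. Of the 7 member ratios whose groups did not overlap, 6 paired a long with a short gene model, out of 16 such pairs, and 1, MYH11 to MYLK, was among the 6 pairs of long models; the 6 pairs of short models gave 0. The part of transcript length in these ratios was not tested. In high cuff pressure replicate 2, where SYNPO2 was low, the median centred log2 CPM was 0.29 in the shortest quartile of gene models and -0.23 in the longest, the widest gap of the 6 libraries.

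**Figure D4:**
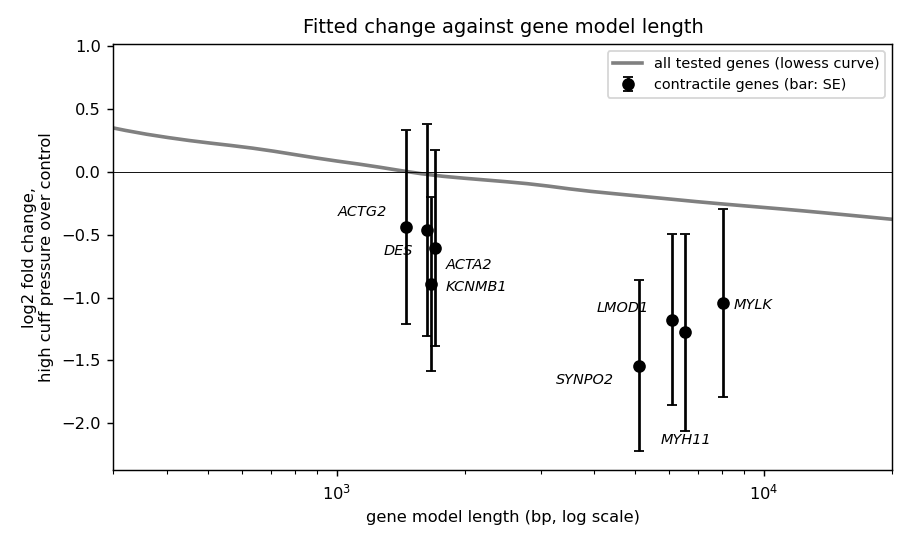
Log2 fold change of high cuff pressure over control against gene model length (log axis) for the 8 contractile genes (black, bars show the SE) and as a lowess curve over all tested genes (grey). The 4 long models lie lower than the 4 short ones, and all 8 lie below the curve.

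Other genes of the contractile machinery, were taken from lists of known roles. Over all tested genes, 29.3% had an unadjusted p under 0.05, DESeq2 called 8.53% as lower, and 15.3% were lowest in high cuff pressure replicate 1; the counts of these lists stand beside those shares. Among 18 tested genes of filaments and dense bodies, 0 passed in edgeR (by unadjusted p under 0.05 there were 2, and DESeq2 called 1 as lower), with a median log2 fold change of -0.67. The same replicate 1 of the high cuff pressure group was the lowest library for 17 of the 18, against 15.3% of all tested genes. MYL9, the regulatory light chain of smooth muscle myosin, kept close to the members at 76.5, 520 and 701 CPM with high cuff pressure and 835, 928 and 677 in the controls. FLNA, the broadly expressed actin crosslinker filamin A, had 243, 575 and 1662 against 953, 1526 and 786 CPM, a gap of 2.37-fold below the next lowest library where the MYH11 gap was 7.88-fold.

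Of 8 tested transcription regulators of smooth muscle, 0 passed in edgeR (1 with an unadjusted p under 0.05, 0 with DESeq2); their median log2 fold change was -0.45. SRF, which encodes serum response factor, stood at 29.1, 17.8 and 48.2 CPM with high cuff pressure and 32.0, 35.5 and 29.9 in the controls. MRTFB, listed as MKL2, a cofactor of SRF, had 61.7, 27.2 and 71.7 against 72.7, 96.1 and 74.2 CPM. Both were thus lower in high cuff pressure replicate 2 than in replicate 1, unlike 7 of the 8 contractile genes. Of the 8 tested regulators, 4 were lowest in high cuff pressure replicate 1, against 15.3% of all tested genes. MYOCD, which encodes myocardin and is named after its values were seen, had 3.65, 5.88 and 23.0 against 10.1, 24.5 and 12.2 CPM; replicates 1 and 2 of the high cuff pressure group were its 2 lowest libraries.

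Among 10 tested genes that set myosin phosphorylation, 0 passed in edgeR, though the unadjusted p was under 0.05 for 6 and DESeq2 called 6 as lower (29.3% and 8.53% over all genes). RHOA, a small GTPase that acts on the actin cytoskeleton, stood at 457, 541 and 576 CPM with high cuff pressure against 399, 378 and 410.4 in the controls (log2 fold change 0.41). ROCK1, a kinase that restrains myosin phosphatase, and PPP1R12A, its targeting subunit, are named after their values were seen. ROCK1 had 38.5, 25.8 and 45.5 against 69.4, 74.8 and 90.9 CPM (log2 fold change -1.10, edgeR adjusted p = 0.054). PPP1R12A had 18.1, 19.5 and 54.5 against 78.5, 92.02 and 80.0 CPM (-1.44, edgeR adjusted p = 0.081). High cuff pressure replicate 1 was the lowest library for 2 of the 10, near the 15.3% of all tested genes.

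Of 10 tested channel, pump and receptor genes, 0 passed in edgeR (the unadjusted p was under 0.05 for 4, and DESeq2 called 3 as lower), with a median log2 fold change of -0.71. The lowest library was high cuff pressure replicate 1 for 6 of the 10, against 15.3% of all tested genes. ATP2A2, the calcium pump of the sarcoplasmic reticulum, which epithelium also uses, stood at 768, 484 and 614 against 540 to 652 CPM. ITPR1, an inositol trisphosphate receptor, had 35.1, 29.9 and 66.7 against 52.8, 101 and 52.8 CPM. PLN, which restrains the calcium pump, and P2RX1, an ATP-gated channel of smooth muscle, are named after their values were seen. Both were also lowest in high cuff pressure replicate 1, at only 2 and 8 counts, so the size of that gap is uncertain. Unlike in the contractile genes, replicate 3 of that group lay below all controls in both. PLN had 0.197, 3.30 and 10.1 against 32.0, 21.8 and 20.3 CPM, and P2RX1 0.789, 20.5 and 21.8 against 24.9, 68.7 and 37.0. Both reached the low-count filter in all 3 libraries of the controls alone; their groups did not overlap, and neither passed (edgeR adjusted p = 0.13 and 0.27). KCNMA1, the pore subunit that KCNMB1 accompanies and also named after its values were seen, had 6.21, 6.12 and 14.0 against 18.4, 36.7 and 22.4 CPM, so its replicates 1 and 2 with high cuff pressure were alike while those of KCNMB1 differed. KCNMA1 did not pass either (log2 fold change -1.55, edgeR adjusted p = 0.071).

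Relatives of the members that work mainly outside smooth muscle were looked up after values had been seen, and 12 of 16 had a row. High cuff pressure replicate 1 was the lowest library for 4 of these 12 (ACTC1, VIM, CNN3 and KCNMB4), against 15.3% of all tested genes. In edgeR, 1 of the 12, MYLK2, passed, against 5.28% of all tested genes. MYH9, the main non-muscle myosin heavy chain, stood at 584, 684 and 1025 CPM against 476, 559 and 406, and beta actin (ACTB) at 2234, 2764 and 3264 against 2505, 2205 and 2088. TAGLN2, the transgelin of non-muscle cells, had 409, 525 and 443 against 276, 159 and 245 CPM. None of these 3 passed (edgeR adjusted p = 0.19, 0.57 and 0.068). SYNPO, the synaptopodin of kidney and nerve cells, had 40.0, 48.7 and 61.6 against 22.9, 29.1 and 13.4 CPM, groups that did not overlap (log2 fold change 1.20, edgeR adjusted p = 0.069). The groups overlapped for MYH10, CNN3, MYLK3, ACTA1 and KCNMB4, whose log2 fold changes were -0.078, 0.39, -0.021, 1.02 and 0.33. The intermediate filament gene VIM, active in mesenchymal cells, did share the gap, at 262 CPM in high cuff pressure replicate 1 where the rest had 944 to 2388. ACTC1, the cardiac alpha actin, which reached the low-count filter in all 3 libraries of the controls alone, had 2, 31 and 74 counts with high cuff pressure and 245, 173 and 224 in the controls; its groups did not overlap, and its log2 fold change of -2.34 did not pass (edgeR adjusted p = 0.11). MYLK2, the skeletal muscle kinase, had 22, 23 and 33 counts with high cuff pressure and 3, 2 and 5 in the controls; it reached the low-count filter in the high cuff pressure group alone, so its call as higher (edgeR adjusted p = 0.022) says little beyond these counts.

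Markers of other tissue components were measured beside the contractile set. In high cuff pressure replicate 1, fibroblast genes summed to 335 CPM where the other 5 libraries had 1236 to 2510, pericyte and vessel wall genes to 97.1 against 228 to 443, and caveola genes to 59.8 against 175 to 467. These gaps of 3.69-, 2.35- and 2.92-fold to the next lowest library compare with 8.55-fold for the contractile sum. Endothelial genes, at 495 CPM, and epithelial genes, at 2863 CPM, lay inside the ranges of the other 5 libraries, 271 to 1122 and 2020 to 4625. Both sums were below those of the rest of the group, 1028 and 1122 CPM for endothelium and 3528 and 4625 for epithelium. The epithelial sum was above all controls, which had 2020 to 2104 CPM, and the endothelial sum lay among its controls, at 271 to 749 CPM. The leukocyte sum was highest in high cuff pressure replicate 1, at 6878 CPM, where the neutrophil gene S100A9 led it. It was 1578 and 3702 CPM in the rest of that group and 45.2 to 473 in the controls. PTPRC, of the same list, had 9.27 CPM in replicate 1 of that group and 9.07 to 18.9 in the controls. Relative to the fibroblast sum, the contractile sum was 1.57-fold in high cuff pressure replicate 1 and 3.48- to 4.94-fold elsewhere. The part of tissue composition in the contractile values was not tested.

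Among all tested genes, 5.28% passed in edgeR (1.62% as lower), 29.3% had an unadjusted p under 0.05, and DESeq2 called 19.2%. Of the fibroblast genes, OGN and LUM, proteoglycans of the connective tissue matrix, passed as lower among 11 tested (0 higher; median log2 fold change -0.52). OGN fell by 3.22 and LUM by 1.86 on the log2 scale, edgeR adjusted p = 0.018 and 0.046, and in both the groups did not overlap. PECAM1 was the 1 of 8 endothelial genes to pass, as higher by 1.53, and the tight junction gene CLDN7 was the 1 of 9 epithelial genes, as higher by 0.99. Among 9 leukocyte genes, 6 passed as higher and 0 as lower. The 3 that did not pass were S100A9, PTPRC and CD3E. Their log2 fold changes were 3.99, -0.98 and -0.47 (edgeR adjusted p = 0.12, 0.14 and 0.42), so the list did not move as 1. Of the 6, CSF3R, CXCR1 and FPR1 reached the low-count filter in all 3 libraries of the high cuff pressure group alone. They thus entered the test through the group in which they were high. CSF3R also reached the filter in 2 control libraries, and CXCR1 and FPR1 in 0. By p the 6 were led by CD68 of macrophages and CSF3R and S100A8 of neutrophils. CD68 stood at 83.1 ± 6.13 CPM with high cuff pressure against 25.8 ± 0.362 in the controls (SD, n = 3), and its 3 high cuff pressure libraries were alike. CSF3R (236, 89.3 and 34.9 CPM) and S100A8 (641, 306 and 109 CPM) were highest in the library with the fewest contractile transcripts. None of 7 pericyte or 4 caveola genes passed (0 in each; 0 and 1 had an unadjusted p under 0.05, and 0 were called by DESeq2), with medians of -0.054 and -0.018. MCAM and NOTCH3 of the vessel wall had 40.3 and 22.8 CPM in high cuff pressure replicate 1, and 56.0 CPM or more in every other library. CAV1, which forms caveolae, had 29.2 CPM there and 96.6 to 316 elsewhere, and CAVIN3 (listed as PRKCDBP), which belongs to their coat, had 17.8 CPM there and 27.1 to 115 elsewhere. Skeletal muscle genes were scarce. Their sum was 9.30 to 60.8 CPM, 8 of the 12 with a row did not pass the count filter, and ACTA1 and NEB led the sum. ACTA1 had 39, 40 and 260 counts with high cuff pressure and 62, 98 and 33 in the controls. NEB had 41, 6 and 8 against 58, 459 and 289 counts (log2 fold change -3.38, edgeR adjusted p = 0.064). It reached the low-count filter in all 3 libraries of the controls alone, and its groups did not overlap. No member of the striated muscle, cartilage, nerve or fat lists passed in edgeR (0 of 4, 5, 7 and 3 tested). With an unadjusted p under 0.05 there were 1, 1, 2 and 0, against 29.3% of all tested genes. DESeq2 called 1 as lower, 1 as higher, 2 as lower and 0 in these lists, against 19.2% of all tested genes. Levels of MATN1 of cartilage, at 57.7 to 89.3 against 21.0 to 43.2 CPM, and of CNMD, listed as LECT1, at 0.394 to 9.17 against 14.0 to 20.9, differed in opposite directions without passing. UCHL1 of neurons had 20.7 to 38.0 against 16.1 to 21.4 CPM. LPL, a lipase of fat and muscle, had 2.56 to 21.1 against 5.38 to 15.3 CPM.

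**Figure D5:**
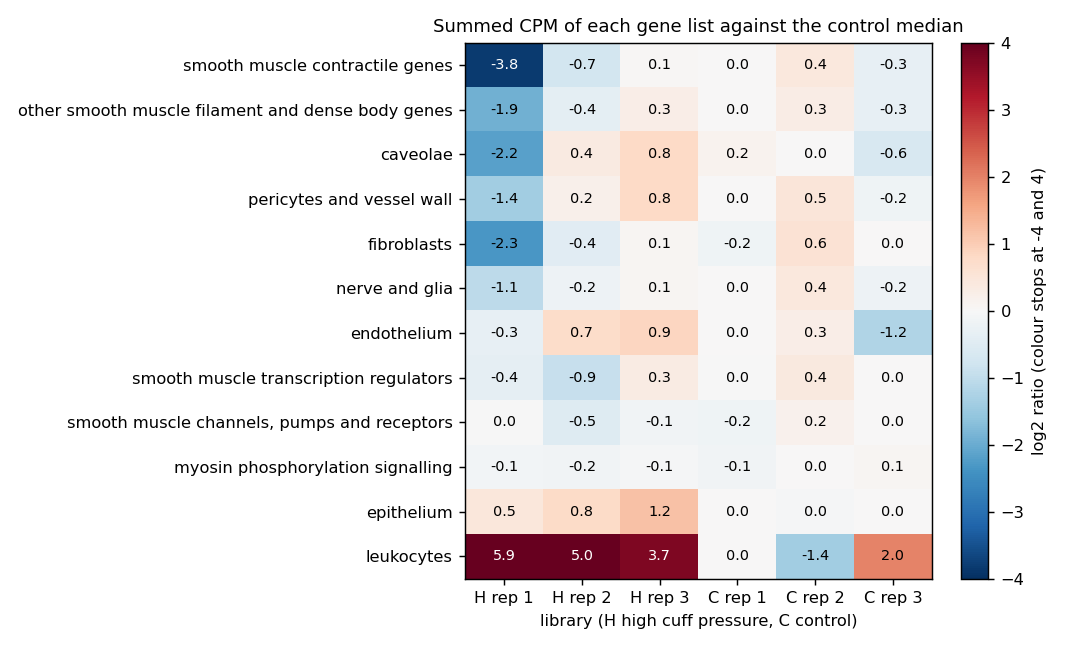
Log2 ratio of the summed CPM of each gene list to the median of the 3 controls, by library (blue lower, red higher; the printed numbers are the ratios). The contractile genes stand at -3.8 in high cuff pressure replicate 1, fibroblast genes at -2.3, caveola genes at -2.2, and epithelial genes at 0.5.

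The genes with the profile most like the set were sought by the root mean square difference of centred log2 CPM over the 6 libraries, among 7905 genes with a symbol and a mean of at least 10 CPM. The nearest 8 differed from the mean profile of the members by 0.18 to 0.28, where the median gene differed by 1.41. They were PGM5, a component of adhesion sites in muscle, MYL9, the fibril-associated collagen COL14A1, the insulin-responsive glucose transporter SLC2A4, LHFP, ITIH5, the potassium channel subunit KCNAB1 and the angiopoietin ANGPT4. PGM5 had 7.49, 49.8 and 107 CPM with high cuff pressure and 125, 121 and 91.6 in the controls, and SLC2A4 had 1.87, 17.8 and 22.5 against 28.2, 28.6 and 19.9. ADIPOQ, a marker of fat cells, which also use SLC2A4, stood at 5.91, 11.5 and 64.0 against 11.7, 16.6 and 9.48 CPM. Among the members, which define the mean profile, MYLK was nearest to it (0.11) and SYNPO2 farthest (0.85). None of the 8 nearest genes passed (edgeR adjusted p = 0.22 to 0.53), and their log2 fold changes were -1.28 to -0.77. These genes were picked for a profile like that of the members, none of which passed, so these values largely follow from the choice.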

How the data were processed

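Tracheal mucosa gave 6 polyA libraries, sequenced with a DNBSEQ-T7 instrument, per the labels' protocols. HISAT2 2.0.4, StringTie 1.3.3b and edgeR stand in the submitters' processing notes, with no role stated. Genome build, annotation, strand and counting options were not given in the sources used here. In the deposited gene table are raw read counts per gene and the authors' FPKM, from whose ratio gene model lengths were derived. A second deposited table gives the authors' p-values and q-values. Groups and replicate numbers follow the library names in the labels.

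Counts were fitted with edgeR 4.0.16 in R 4.3.3 (filterByExpr, TMM, robust glmQLFit and glmQLFTest, all 6 libraries, Benjamini-Hochberg over 13724 genes, threshold 0.05). For log2 CPM a prior count of 2 was used, and an SE is the log2 fold change over the square root of F. The fit was tested on simulated data. Alternatives used RLE factors, total counts, DESeq2 1.42.0, limma-voom 3.58.1, other filters, no robust estimation, a replicate block, limma-trend on log2(FPKM + 1) or + 0.1 (at least 1 FPKM in 3 libraries), and each library left out. Fits without mitochondrial genes and with a length trend removed (lowess span 0.5) were added after seeing the data. The members and lists were chosen with earlier results of these data known. Named were all members with a row; from each list up to 3 called genes or else the 2 most abundant; and the 8 nearest profiles; a few genes that this rule names are not reported here. Deposited enrichment tables were not used here. Library totals of 10501734 to 14415754 counts put 3 counts at 0.193 to 0.353 CPM.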

Additional observations from a re-analysis of the deposited data

How the results depend on the processing

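Over 18 alternatives, 142 of 144 log2 fold changes of contractile genes were negative and 1 passed; the set median ranged from -1.93 to -0.45. Without high cuff pressure replicate 1, ACTG2 had 0.092 and DES 0.087, the high ends of ranges that began at -1.07 and -1.17 when a library was left out; without high cuff pressure replicate 3, SYNPO2 passed at -2.86, so that 0 to 1 members were called when a library was left out. The number of genes called overall was 725. It was 1630 with total counts (389 higher and 1241 lower, with the median of all genes at -0.40), 2631 with DESeq2, 2192 with log2(FPKM + 1) and 1859 with log2(FPKM + 0.1). With a library left out it ranged from 0 to 2623; the count of 0 came from edgeR without control replicate 2 or 3, where 2691 and 2496 genes had an unadjusted p under 0.05. The cause was not tested. With the replicate block, 244 genes were called and the set median was -1.47. Deviations of same-numbered libraries correlated at -0.28, -0.20 and -0.23, and those of differently numbered libraries at -0.14 to 0.33. Deviations within a group depend on each other, so these correlations cannot show whether samples were paired. The lowest count of a member in any library was 34, for KCNMB1 in high cuff pressure replicate 1.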
